A study of Homo sapiens with 10 samples.

Results

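The enzymes that build purine and pyrimidine nucleotides from small precursors were examined in ARPE-19 cells, an established line of human retinal pigment epithelium (RPE). The 10 genes were taken by symbol from the deposited table of read counts: the purine enzymes PPAT, GART, PAICS, ATIC, IMPDH1 and IMPDH2 and the pyrimidine enzymes CAD, DHODH, UMPS and CTPS1. Each symbol had 1 row among the 22626 rows of the table, and all 10 passed the filter on low counts that left 14936 rows for testing. Cells were kept for 48 h in control medium, which held glucose at 5.5 mM together with mannitol at 32 mM (n = 5), or in high glucose (HG) medium with glucose at 37.5 mM (n = 5). The labels name mannitol, which balances the number of dissolved molecules, for the control medium alone, so effects of glucose and of mannitol cannot be told apart. The comparison asks how the RNA of nucleotide synthesis differed between these media. Nothing in the labels says that the libraries came from separate cultures, so p-values measure the spread between libraries, which may in part be technical.

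Cells make purines on a sugar phosphate, PRPP, adding nitrogen, carbon and glycine step by step until the ring closes as IMP, from which the AMP and GMP branches part. The pyrimidine ring is closed first and joined to PRPP afterwards, which yields UMP. Phosphorylation turns UMP into UTP, and amination of UTP gives CTP. Both routes use glutamine and aspartate, and the purine route also takes carbon from formyl folate. Salvage enzymes recycle bases and nucleosides beside these routes.

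In the HG group CTPS1 was lower and DHODH and ATIC were higher than in the control group, and the other 7 genes did not pass the test. The test was the quasi-likelihood test of edgeR on the counts, and a gene was called when its p, adjusted by the Benjamini-Hochberg method over all rows tested, was under 0.05. Thus 3 of 10 members were called, against 15.4% of all rows, 2 of them higher (7.62% of all rows) and 1 lower (7.80%). None of the 10 was called with an absolute log2 fold change of at least 0.5, against 5.03% of all rows. Their median log2 fold change was -0.055, against 0.0013 over all rows tested. Among genes beside these routes, PRPS1 of PRPP supply fell and 4 of 5 genes of formyl folate supply rose.

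A promoter window is printed for each of the 3 called genes and for PAICS, whose printed window overlaps that of PPAT. PAICS is the only uncalled gene printed, so these windows do not compare called with uncalled genes. Each printed window holds 250 bases before and 50 after a RefSeq start (GRCh38.p14), read 5′ to 3′ on the gene's strand. Capitals mark the E-box, CACGTG, letters that factors of the MYC and MondoA type can bind.
CTPS1, chr1:40979446-40979745, plus strand: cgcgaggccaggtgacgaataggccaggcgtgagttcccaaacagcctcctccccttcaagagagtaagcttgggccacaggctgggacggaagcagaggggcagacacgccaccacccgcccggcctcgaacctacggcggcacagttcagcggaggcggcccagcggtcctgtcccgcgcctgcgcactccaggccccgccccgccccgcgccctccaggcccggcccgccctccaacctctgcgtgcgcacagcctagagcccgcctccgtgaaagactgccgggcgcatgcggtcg
DHODH, chr16:72008494-72008793, plus strand: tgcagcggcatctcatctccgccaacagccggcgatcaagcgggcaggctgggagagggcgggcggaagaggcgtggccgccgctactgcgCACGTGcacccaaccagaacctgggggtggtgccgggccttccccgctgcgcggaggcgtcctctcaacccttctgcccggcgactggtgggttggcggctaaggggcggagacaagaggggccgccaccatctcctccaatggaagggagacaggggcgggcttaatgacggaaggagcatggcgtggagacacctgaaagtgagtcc
ATIC, chr2:215311809-215312108, plus strand: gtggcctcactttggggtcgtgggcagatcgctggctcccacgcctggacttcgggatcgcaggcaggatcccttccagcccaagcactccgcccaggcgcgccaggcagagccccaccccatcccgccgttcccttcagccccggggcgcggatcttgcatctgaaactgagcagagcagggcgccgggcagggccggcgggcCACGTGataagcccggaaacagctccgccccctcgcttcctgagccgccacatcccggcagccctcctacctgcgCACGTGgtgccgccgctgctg
PAICS, chr4:56435502-56435801, plus strand: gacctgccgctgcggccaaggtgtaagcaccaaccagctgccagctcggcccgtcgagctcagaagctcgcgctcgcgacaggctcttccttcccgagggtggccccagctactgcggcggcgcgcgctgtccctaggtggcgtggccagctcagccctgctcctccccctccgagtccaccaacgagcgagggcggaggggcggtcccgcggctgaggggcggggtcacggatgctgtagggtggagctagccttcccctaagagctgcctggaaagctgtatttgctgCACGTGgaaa
The table held 14 windows for 9 of the 10 genes, the missing entry being IMPDH2. E-box letters, which read the same on both strands, occurred in 4 of the 14 windows, 1 each of PPAT, PAICS, ATIC and DHODH, and in 7.26% of all 35116 windows. The PPAT and PAICS windows hold the same site. In ATIC they began at -46 and at 29 from the start, and in DHODH at -159. PPAT and PAICS are transcribed away from each other, with starts 126 bases apart in the GENCODE annotation. The same letters at chr4:56435792-56435797 stand at 40 from the RefSeq start of the PAICS window and at -182 from that of the PPAT window. Neither of the 2 CTPS1 windows held them, nor did the PAICS windows that are not printed or any window of GART, IMPDH1, CAD and UMPS. The element TGATGNAA, searched on both strands as letters that ATF4 and its partners can bind, occurred in 0 of the 14 windows and in 3.62% of all windows. Such matches describe letters only.

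As deposited FPKM, which is a level per transcript length, the control means of the 10 genes ranged from 1.48 ± 0.115 for DHODH to 98.1 ± 17.3 for IMPDH2 (SD, n = 5). The order from high to low was IMPDH2, ATIC, PAICS, GART, CTPS1, CAD, IMPDH1, UMPS, PPAT and DHODH. Between control libraries, ATIC (53.6 ± 1.17) overlapped PAICS (53.1 ± 5.22), CAD (13.8 ± 0.807) overlapped IMPDH1 (12.5 ± 1.40), and UMPS (7.77 ± 1.98) overlapped PPAT (6.495 ± 0.819). In the HG group ATIC lay above PAICS in every library, and CTPS1 came down to overlap CAD. Changes of PAICS and UMPS differed in sign between FPKM and counts, as given below, so this order holds for FPKM only.

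The libraries held between 32448991 and 45864176 counts, and the members between 215 and 9643 counts each. TXNIP and ARRDC4, which glucose is known to induce, were higher in every HG library than in every control library, by log2 fold changes of 3.15 and 0.74. Of 11 RPE and epithelial markers 8 passed the filter, and 3 of these (PMEL, KRT8 and KRT18) were called lower in the HG group, against 7.80% of all rows. The fitted log2 fold changes of all 8 were below 0, with a median of -0.47. The lowest, -4.97 for BEST1, was not called, and control replicates 1 and 4 held 8707 and 18223 counts of it against 24 to 300 in the other 8 libraries. TTR had 0 counts in all libraries and RPE65 at most 6. Of 3 markers of other cell types, PTPRC and PECAM1 had at most 4 counts, while CD68, a lysosomal protein used as a macrophage marker, rose from 70.3 ± 10.5 to 114.2 ± 17.0 normalised counts. The part of these marker changes in the results was not tested. Control replicate 2 and HG_1 stood apart from the other 8 libraries. The GC trend was taken on log2 counts after each row's mean over all libraries was subtracted. With each 10 percentage points of transcript GC content, these relative values rose by 0.17 and 0.19 in the 2 libraries. The slopes of the others lay between -0.0916 and -0.00519. HG libraries are named by their deposited column (HG_1 to HG_5), since the labels tie these columns to the group only.

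CTPS1 (ENSG00000171793, chr1:40979335-41012565, plus strand, GRCh38) makes CTP from UTP with glutamine as nitrogen donor. Its CPM, counts scaled to a common library size, were 59.98, 57.9, 57.3, 55.8 and 57.2 in control replicates 1 to 5 and 45.02, 46.4, 48.6, 47.0 and 48.8 in HG_1 to HG_5. Every HG library lay below every control library, with a gap between the groups wider than the range inside either. CTPS1 fell by 18.1% (log2 fold change -0.29, SE 0.0427, 95% interval -0.38 to -0.19, edgeR adjusted p = 0.00135). A two-sided exact permutation test of the libraries gave p = 0.00794, the smallest that 5 against 5 allows. The call was kept in all 10 fits that each left out 1 library, with log2 fold changes between -0.30 and -0.27. The groups did not overlap in 3 of the 10 members, against 13.6% of all rows, with DHODH and ATIC higher (6.74% of all rows) and CTPS1 lower (6.91%). The paralogue CTPS2 was at 24.4 ± 1.80 CPM in the control and 22.8 ± 1.88 in the HG group (SD, n = 5 each, log2 fold change -0.10, edgeR adjusted p = 0.450). The FPKM ratio of CTPS1 to CTPS2 was between 2.90 and 3.36 in the control and between 2.08 and 2.96 in the HG libraries, so the ratios overlapped.

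DHODH (ENSG00000102967, chr16:72008588-72027664, plus strand) oxidises dihydroorotate at the inner mitochondrial membrane and hands the electrons to ubiquinone. Its CPM were 6.67, 7.09, 6.28, 6.51 and 6.72 in control replicates 1 to 5 and 10.8, 7.47, 8.47, 8.82 and 8.15 in HG_1 to HG_5. The groups did not overlap, and HG_1, a library with a GC trend, was the highest. DHODH rose by 31.5% (log2 fold change 0.39, SE 0.103, 95% interval 0.17 to 0.62, edgeR adjusted p = 0.0258, two-sided exact permutation p = 0.00794). Without HG_1 and control replicate 2 the log2 fold change was 0.33 (edgeR adjusted p = 0.0160), and with the trend on GC content and length removed it was 0.42 (edgeR adjusted p = 0.00589). The call was lost, with edgeR adjusted p between 0.0529 and 0.0637 and log2 fold changes between 0.37 and 0.41, without any single one of control replicates 1, 3, 4 and 5, HG_3 or HG_4.

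ATIC (ENSG00000138363, chr2:215311817-215349773, plus strand) adds the last formyl group of the purine ring and closes it to IMP. Its CPM were 114.6, 130.8, 126.6, 129.0 and 123.5 in control replicates 1 to 5 and 140.6, 139.8, 142.5, 135.2 and 135.9 in HG_1 to HG_5. The HG libraries lay together above all control libraries, of which control replicate 1 was the lowest. ATIC rose by 11.1% (log2 fold change 0.15, SE 0.0440, 95% interval 0.055 to 0.25, edgeR adjusted p = 0.0403, two-sided exact permutation p = 0.00794). Its call was kept without control replicate 2 or without HG_1, and lost, with edgeR adjusted p between 0.0553 and 0.103 and log2 fold changes between 0.12 and 0.16, without any one of the other 8. With both of those libraries left out the log2 fold change was 0.17 (edgeR adjusted p = 0.0161).

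**Figure D1:**
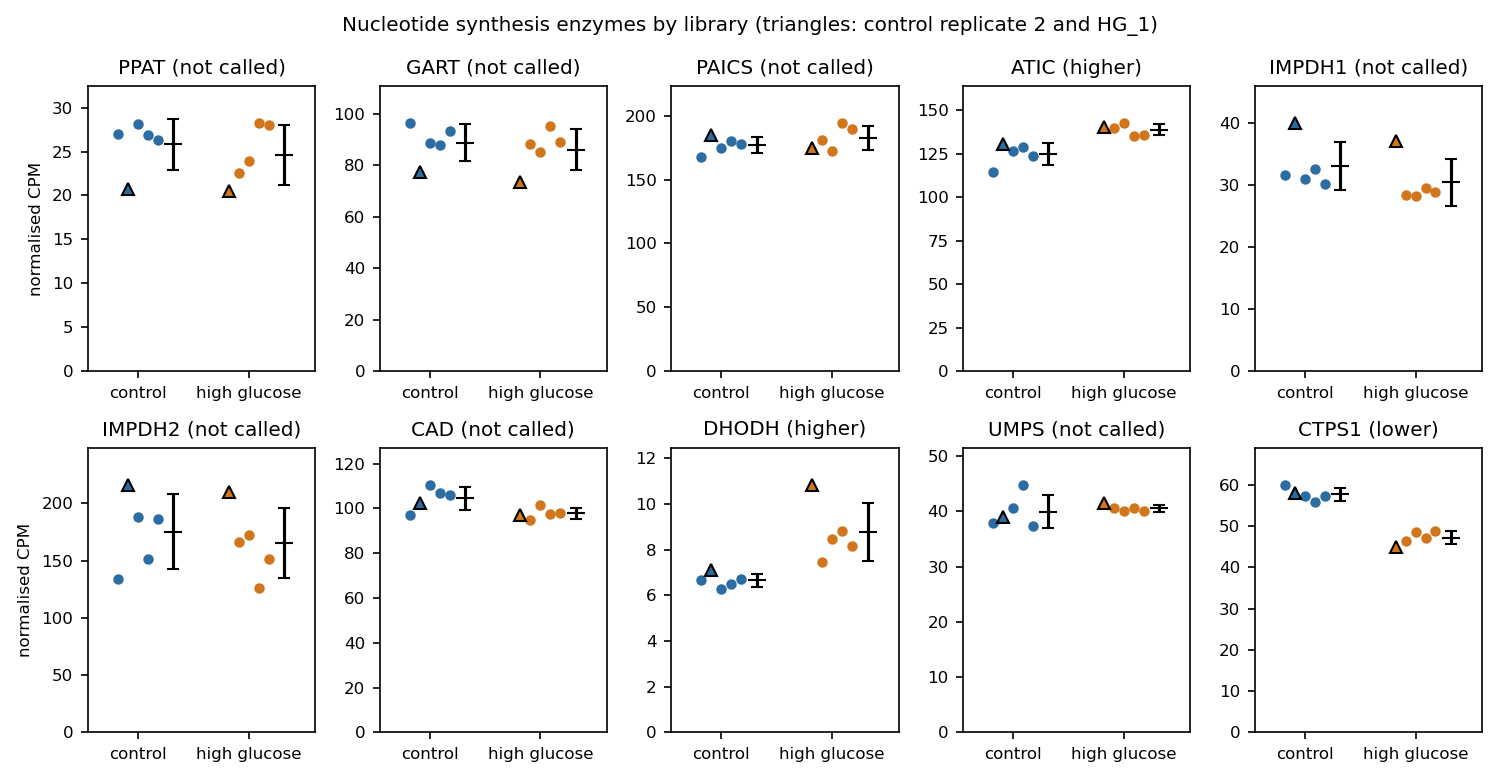
Normalised CPM (y axis, from 0) of the 10 enzymes in each of the 5 control and 5 high glucose libraries, with the mean and SD of each group. Triangles are control replicate 2 and HG_1. The high glucose points lie wholly below the control points for CTPS1 and wholly above for DHODH and ATIC, and the groups overlap for the other 7.

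The remaining purine enzymes overlapped between the groups. PPAT (chr4:56393362-56435615, minus strand) commits PRPP to purine synthesis and was at 25.8 ± 2.92 CPM in the control and 24.7 ± 3.41 in the HG group (SD, n = 5 each), a log2 fold change of -0.066 with a 95% interval from -0.31 to 0.18. Without HG_1 the value was -0.0033 and without control replicate 2 it was -0.13, and neither was called. Of its transcript windows of 100 bases, 3.49% also occur in other genes, mainly the pseudogene PPATP1. GART (chr21:33503931-33543491, minus strand), which carries several middle steps on 1 protein, was at 88.7 ± 7.21 and 86.0 ± 8.02 CPM, with an interval from -0.21 to 0.13. It overlaps SON on the other strand, which shares 3.72% of its windows, and whether the counting used strand is not given in the sources used here. PAICS (chr4:56435741-56464579, plus strand), which carboxylates the imidazole intermediate and joins it to aspartate, was at 177.2 ± 6.41 and 182.4 ± 9.35 CPM, with an interval from -0.059 to 0.14. In percent, the intervals ran from -19.2% to 12.9% for PPAT and from -4.03% to 10.5% for PAICS, the pair with a shared start region.

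IMP dehydrogenase, which opens the GMP branch, has 2 isozymes. IMPDH1 (chr7:128392277-128410252, minus strand) had CPM of 31.7, 39.9, 31.0, 32.6 and 30.2 in control replicates 1 to 5 and 37.2, 28.4, 28.2, 29.5 and 28.9 in HG_1 to HG_5. Control replicate 2 and HG_1 were the highest in their groups, and the groups overlapped. With all libraries its log2 fold change was -0.12 (SE 0.0996, edgeR adjusted p = 0.487). Without these 2 libraries it was -0.12 with a smaller SE of 0.0387, and the gene was called lower (edgeR adjusted p = 0.0418), in a fit that called 4 of 10 members and 27.1% of all rows. With 1 of them left out the value moved to -0.043 (without control replicate 2) or -0.20 (without HG_1), and the gene was not called. With 1 surrogate variable it was called lower, in a fit that called 33.0% of all rows in either direction. With the trend on GC content and length removed it was -0.082 and not called (edgeR adjusted p = 0.190), in a fit that called 3 of 10 members and 29.3% of all rows. A fit with the column number as a replicate block called CTPS1 alone and 7.17% of all rows. IMPDH2 (chr3:49024325-49029408, minus strand), the more abundant isozyme, had CPM of 134.2, 216.3, 188.3, 151.4 and 186.7 in the control and 209.5, 166.6, 172.0, 126.5 and 151.5 in the HG libraries. Its coefficient of variation was 18.6% in the control group and 18.4% in the HG group, the largest of the 10 members in either. The log2 fold change of -0.086 had an interval from -0.42 to 0.24, which holds both falls and rises, so the missing call does not show that the level was unchanged. IMPDH2 FPKM exceeded IMPDH1 FPKM by a ratio between 6.14 and 9.30 in the control and between 6.38 and 9.05 in the HG libraries, so the balance of isozymes overlapped.

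**Figure D2:**
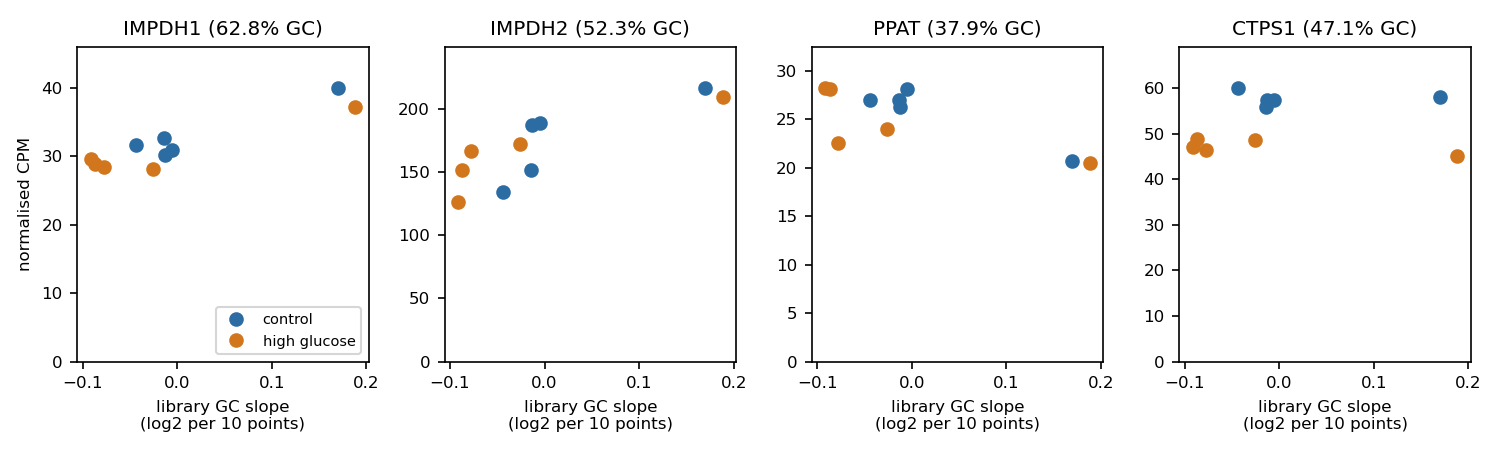
Normalised CPM (y axis, from 0) of IMPDH1, IMPDH2, PPAT and CTPS1 against each library's slope on transcript GC content (x axis, log2 units per 10 percentage points). The slope is that of log2 counts relative to each row's mean over all libraries. There is 1 point for each of the 5 control and 5 high glucose libraries. The 2 libraries at the right, control replicate 2 and HG_1, are the highest for both IMPDH genes and the lowest for PPAT, while the groups stay apart for CTPS1.

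The spread of several members went with this library trend. In control replicate 2 and HG_1, PPAT was at 20.7 and 20.5 CPM, below the 22.5 to 28.2 of the other 8 libraries, and GART at 77.4 and 73.3, below 85.0 to 96.2. IMPDH1 (39.9 and 37.2) and IMPDH2 (216.3 and 209.5) lay above the other 8 libraries, which reached 32.6 and 188.3. The PPAT transcript has 37.9% GC and that of IMPDH1 62.8%, the extremes of the 10 members. The other members did not all follow the order of GC content. GART (46.5% GC) and IMPDH2 (52.3%) stood apart, while CAD (57.7% GC) and PAICS (42.3%) lay within the range of the other 8 libraries in both control replicate 2 and HG_1. ATIC and UMPS also lay within it in both. CTPS1 (47.1% GC) lay below the other 8 in HG_1 and DHODH (53.1%) above them, and both lay within the range in control replicate 2. With group means taken out, PPAT and GART varied together across the 10 libraries (r = 0.84) and GART and IMPDH1 oppositely (r = -0.86). Of the 45 pairs of members 23 were positive and 22 negative, with a median of 0.0034. These points share library and GC trend, and the part of that trend in them was not tested. By the mean standardised profile of the members over the 10 libraries, the most similar rows were 2 unnamed MSTRG loci (r = 0.92 and 0.88), ZDHHC14 (0.87), FAM20C (0.87) and MOB2 (0.85). These were picked as the highest r among all rows tested, over 10 libraries only, and whether such values exceed chance was not tested.

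Among the pyrimidine enzymes, CAD and UMPS were not called. CAD (chr2:27217390-27243943, plus strand), which joins the opening steps of the pathway in 1 protein, was at 104.6 ± 5.21 CPM in the control and 97.8 ± 2.49 in the HG group (SD, n = 5 each). Its log2 fold change was -0.10 (edgeR adjusted p = 0.183), with an interval from -0.20 to 0.0016, and with the trend on GC content and length removed it was -0.025 (edgeR adjusted p = 0.707). A two-sided exact permutation test of CAD alone, unadjusted, gave p = 0.0476. UMPS (chr3:124730366-124749273, plus strand), which turns orotate into UMP, was at 40.0 ± 2.98 and 40.5 ± 0.578 CPM, with an interval from -0.10 to 0.14. For UMPS the 2 deposited tables differed in sign: mean FPKM went from 7.77 ± 1.98 to 6.79 ± 0.771, and its ratio of CPM to FPKM ranged over 76.7% between libraries. PAICS differed in sign as well, and its ratio ranged over 21.3%. That range was 43.8% for DHODH, 24.96% for CTPS1 and no more than 10.5% for the other members. The cause was not tested.

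**Figure D3:**
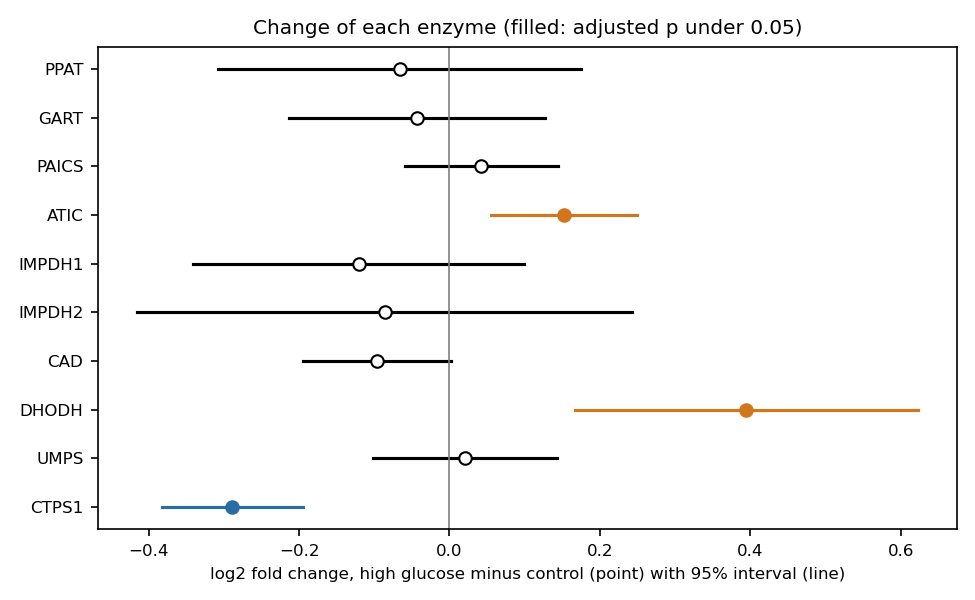
Log2 fold change of each enzyme, high glucose minus control (x axis), with its 95% interval from the edgeR fit of 5 against 5 libraries. CTPS1 at -0.29, ATIC at 0.15 and DHODH at 0.39 passed an adjusted p under 0.05, while IMPDH2 has the widest interval.

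Around the 10 enzymes, 60 further genes of nucleotide metabolism were listed by role, of which 57 passed the filter. Of these 9 were called higher and 4 lower, which is 22.8% against 15.4% of all rows, with a median log2 fold change of 0.014. Without HG_1 and control replicate 2, 24 were called, in the fit that raised the share of all rows called to 27.1%. PRPS2, CTPS2, CMPK1, HPRT1, ADK, AK4, TK2, TYMS, RRM1, RRM2, SHMT1, MTHFD1L, MTHFD1, MCM2, MCM3, MCM5, MKI67 and TOP2A are named after their values were seen, as are the cell type markers given above. The lists are short, and their counts are to be read against the 7.62% of all rows called higher and the 7.80% called lower. In PRPP supply 2 of 4 genes were lower and none higher. PRPS1, a synthetase that makes PRPP from ribose phosphate, had CPM of 138.8, 141.5, 123.7, 146.0 and 146.0 in the control and 77.2, 70.5, 72.2, 73.4 and 89.2 in the HG libraries. All HG libraries lay far below all control libraries. PRPS1 fell by 45.1% (log2 fold change -0.86, SE 0.0727, edgeR adjusted p = 6.97e-05) and was called in all 25 fits made. PRPS2 fell by 10.7% (edgeR adjusted p = 0.0368) and was called in 11 of 25 fits. The FPKM ratio of PRPS1 to PRPS2 was between 3.05 and 3.89 in the control and between 2.01 and 2.60 in the HG libraries, without overlap.

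**Figure D4:**
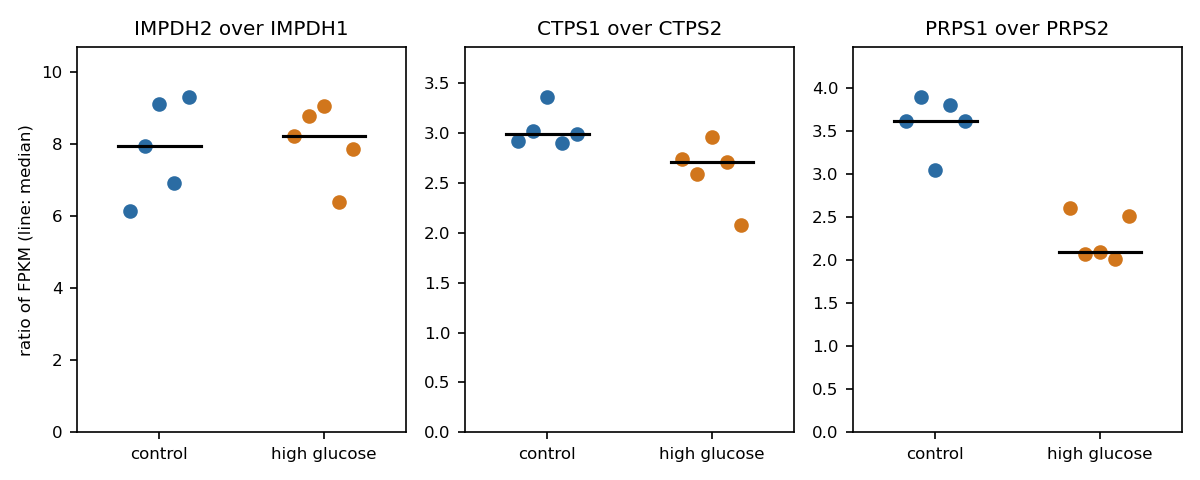
Ratio of the deposited FPKM of 2 isozymes (y axis, from 0) in each of the 5 control and 5 high glucose libraries, with the median as a line. PRPS1 over PRPS2 has a median of 3.62 in the control and 2.09 in the high glucose group, while IMPDH2 over IMPDH1 has 7.95 and 8.21 and CTPS1 over CTPS2 2.98 and 2.71.

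Of the other enzymes of the de novo routes none was called. Among PFAS, ADSL, ADSS1, ADSS2 and GMPS, ADSS1 alone had an unadjusted two-sided exact permutation p under 0.05. ADSS1, an adenylosuccinate synthase, was at 6.46 ± 0.779 CPM in the control and 4.94 ± 0.719 in the HG group (SD, n = 5 each, log2 fold change -0.38, edgeR adjusted p = 0.0675), and was called in 8 of 25 fits. Among CTPS2, CMPK1, NME1 and NME2 no unadjusted exact permutation p was under 0.05, and CMPK1 was called in 3 and NME2 in 2 of 25 fits. The largest log2 fold change there was 0.17 for NME2, a nucleoside diphosphate kinase that shares 66.2% of its transcript windows with the NME1-NME2 readthrough gene.

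In formyl folate supply, which feeds steps of GART and ATIC, 4 of 5 genes were called higher and none lower, against 7.62% and 7.80% of all rows. SHMT1, SHMT2, MTHFD1L and MTHFD2 were called and MTHFD1 was not (log2 fold change -0.036). MTHFD2, a mitochondrial folate dehydrogenase, had CPM of 51.1, 43.6, 46.9, 49.0 and 47.3 in the control and 65.9, 71.6, 72.4, 73.3 and 71.9 in the HG libraries. The groups lay wide apart, with a rise of 49.3% (log2 fold change 0.58, edgeR adjusted p = 0.000115). SHMT2, which takes the carbon of serine in mitochondria, rose by 45.4%, from 142.2 ± 13.7 to 206.6 ± 21.8 CPM (log2 fold change 0.54, edgeR adjusted p = 0.00163). SHMT1 and MTHFD1L had log2 fold changes of 0.26 and 0.27. On the other strand SLC4A5 shares 28.1% of the MTHFD2 windows and AC137834.2 shares 8.82% of those of SHMT2, so their counts are uncertain if strand was not used.

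In purine salvage and interconversion 3 of 13 tested genes were higher and none lower, against 7.62% and 7.80% of all rows. AMPD3, an AMP deaminase that returns AMP to IMP, had CPM of 4.97, 6.08, 7.07, 6.05 and 5.95 in the control and 9.38, 13.5, 13.9, 9.76 and 12.7 in the HG libraries. All HG libraries lay above all control libraries. It rose by 96.3% (log2 fold change 0.97, SE 0.138, edgeR adjusted p = 0.00104), the largest rise among the 57 genes, and was called in all 25 fits, with a log2 fold change of 0.63 on log2(FPKM + 1) with limma. ADK and AK4, kinases of adenosine and AMP, had log2 fold changes of 0.27 and 0.27 and were called in 24 and 13 of 25 fits. HPRT1, the salvage enzyme of hypoxanthine and guanine, was at 45.6 ± 0.886 CPM in the control and 50.4 ± 2.88 in the HG group, without overlap but also without a call (log2 fold change 0.14, edgeR adjusted p = 0.0720). In pyrimidine salvage 1 of 9 genes was called, the mitochondrial thymidine kinase TK2 (log2 fold change 0.34), near the share of all rows (15.4%). TK2 was called in 22 of 25 fits and lost its call on the FPKM scale with limma (log2 fold change 0.21, adjusted p = 0.323 on log2(FPKM + 1)), and 15.0% of its transcript windows occur in other genes. The largest absolute log2 fold change there was that of CDA, which deaminates cytidine. It was -0.42, from 1.61 ± 0.498 to 1.20 ± 0.378 CPM (edgeR adjusted p = 0.389).

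In deoxynucleotide metabolism 2 of 9 genes were lower and none higher, against 7.80% and 7.62% of all rows. SAMHD1, which breaks down deoxynucleotides, fell by 31.2%, from 54.1 ± 11.5 to 37.2 ± 2.37 CPM (SD, n = 5 each, log2 fold change -0.54, edgeR adjusted p = 0.0136). TYMS, the thymidylate synthase, fell by 19.9% (log2 fold change -0.32, edgeR adjusted p = 0.00393), and ENOSF1 on the other strand shares 44.8% of its windows. RRM1 and RRM2, subunits of ribonucleotide reductase, had log2 fold changes of 0.050 and -0.019 and were not called. Among 10 proliferation genes, the replication helicase genes MCM2, MCM3 and MCM5 were lower (7.80% of all rows were), and the other 7, MKI67 and TOP2A among them, were not called. In nucleotide breakdown 1 of 8 genes was called, a share near that of all rows (15.4%). It was NT5E, the surface enzyme CD73 that makes adenosine from AMP. NT5E rose by 34.0%, from 216.6 ± 11.1 to 290.3 ± 26.6 CPM (SD, n = 5 each, log2 fold change 0.42, edgeR adjusted p = 0.00173).

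**Figure D5:**
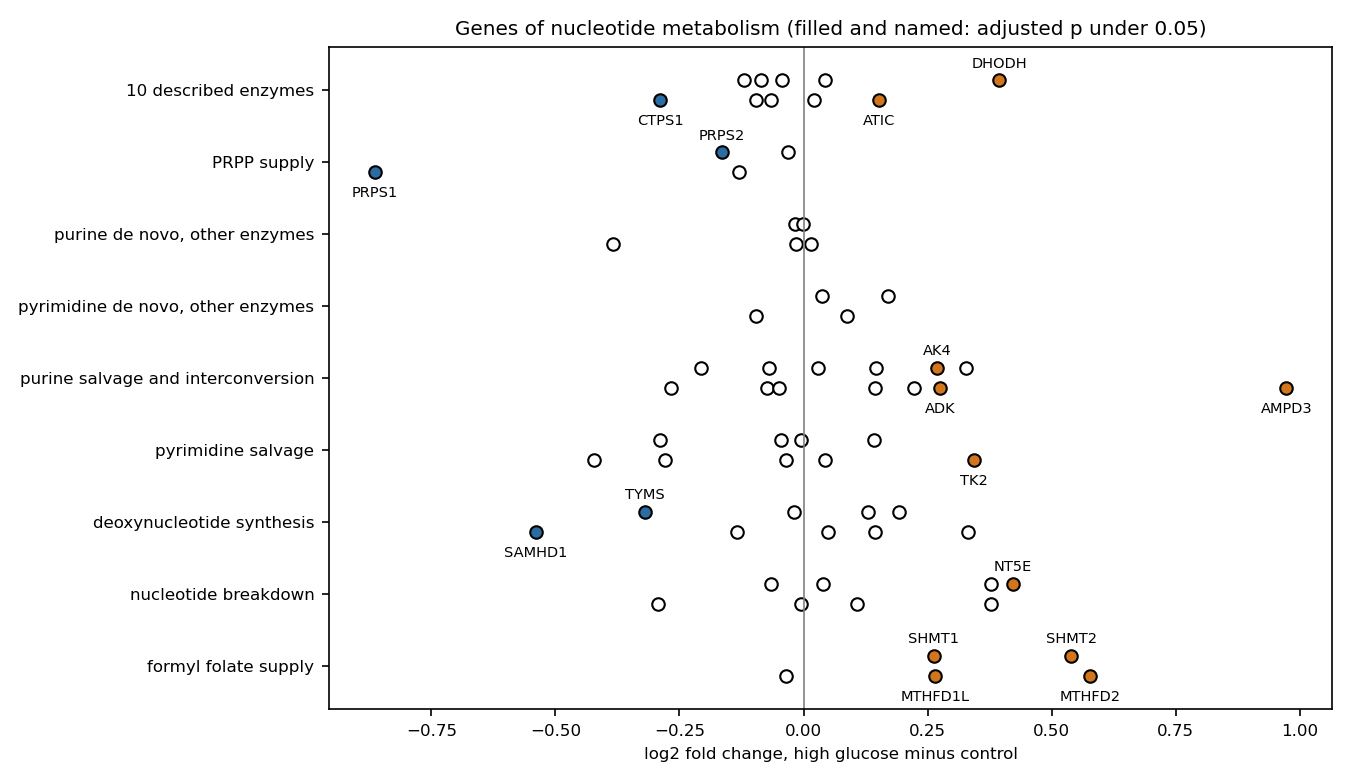
Log2 fold change, high glucose minus control (x axis), of the tested genes of nucleotide metabolism by role (rows), with those at an adjusted p under 0.05 marked. The 10 described enzymes lie between -0.29 and 0.39, PRPS1 at -0.86 and AMPD3 at 0.97 are the extremes, and 4 of 5 formyl folate genes lie at 0.26 or above.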

How the data were processed

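RNA of ARPE-19 cells was sequenced in 5 control and 5 HG libraries. The authors deposited whole-number counts per gene, not normalized, and FPKM values, which are scaled to the length of the transcript and to depth. The submitters' processing notes name fastp 0.20.1, HISAT2 2.2.1 and GRCh38. The counting program, annotation and strand setting are not given in the sources used here.

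Counts were compared with edgeR 4.0.16 in R 4.3.3 (default filter, TMM normalization, quasi-likelihood test, Benjamini-Hochberg adjustment over 14936 rows). Log2 CPM for permutation tests used a prior count of 2. All 20 replicate pairs differed beyond sampling noise (chi-square per row from 13.0 to 78.0). Gene positions and shared windows came from GENCODE 29, promoters from RefSeq.

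The members and lists were chosen with earlier results of these data known, and some listed genes are not reported here. Named genes were the members, TXNIP and ARRDC4, called genes of the other nucleotide lists with an absolute log2 fold change of at least 0.5 or else the largest of a list, and the 5 most similar rows. Alternatives were other count filters, scaling by RLE or by library size only, DESeq2 1.42.0, limma 3.58.1 on log2(FPKM + 1) and log2(FPKM + 0.1), a limit of 1 on mean FPKM, a surrogate variable (sva 3.50.0), a GC and length correction (lowess, span 0.3), no MSTRG loci, a block by column number and left-out libraries. The rows of the GC correction without it were added after seeing the data. The steps were tested on simulated data.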

Additional observations from a re-analysis of the deposited data

Results flagged for a closer look

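Each member's CPM in each condition gives 20 groups of 5 values. In 3 of them a single library stood far from its group, where chance alone gives about 1. PPAT in control replicate 2 was at 20.7 CPM, while the remaining control libraries lay between 26.3 and 28.1. IMPDH1 in control replicate 2 was at 39.9 CPM, with the remaining controls between 30.2 and 32.6. IMPDH1 in HG_1 was at 37.2 CPM, with the remaining HG libraries between 28.2 and 29.5. These are the libraries whose counts, relative to the mean of all libraries, rise with GC content, and the part of that trend in the 3 values was not tested.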

How the results depend on the processing

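CTPS1 was called lower in all 25 fits, with log2 fold changes between -0.30 and -0.27. DHODH and ATIC were each called in 13 of the 14 alternatives that kept every library or left out a pair, the exception being the block by column number, and in 4 and 2 of the 10 that left out 1 library. Over those 10 fits, 1 to 3 members were called, 0 to 2 of them higher, with 11 to 20 other nucleotide genes (20 without HG_1) and 1648 to 2993 of all rows, against 13 and 2303 with all libraries. With 1 surrogate variable, 2 members were called lower (IMPDH1 added, edgeR adjusted p = 0.0191), with 27 other nucleotide genes and 4923 of all rows. With the GC content and length trend removed the last counts were 22 and 3965, where the same 13538 rows without the correction gave 2358, a fit chosen after seeing the data. Without both HG_1 and control replicate 2, 2 members were called lower, with 24 and 4035. Uncalled members changed sign on the FPKM scale with limma, PAICS to -0.096 (-0.098 with 0.1 added) and UMPS to -0.15 (-0.16 with 0.1 added), with the same values where low mean FPKM was filtered out. With 1 library left out, GART ranged from -0.087 to 0.013 (without HG_1), IMPDH2 from -0.18 to 0.0015 (without control replicate 2) and UMPS from -0.0020 (without control replicate 5) to 0.066. The cause was not tested. The labels give the groups no shared replicate numbers. The column number as a replicate block called 1 member, 0 of them higher, 8 other nucleotide genes and 1071 of all rows, and columns of the same number did not deviate together (correlations from -0.066 to 0.039). DHODH, with 215 counts or more per library, carries the largest counting error of the members.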
